A study of Homo sapiens with 4 samples.

Results

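Keratins and claudins are the filament proteins and the tight junction proteins by which epithelial cells are usually recognised, and their transcripts were followed here in liver cancer cells. The members were every row of the coding gene table whose symbol was KRT plus a number (with or without a letter A to C) or CLDN plus a number. They came to 79 of the 19739 genes of the table, 55 keratins and 24 claudins. RNA from 2 established human cell lines labelled as hepatocellular carcinoma, HepG2 and Huh7, had been sequenced. The untreated cells of each line had received no agent. The treated cells had received RSL3@O2-ICG NBS and, with it, low-frequency ultrasound, with a listed treatment time of 24 h for the whole. RSL3 is a compound that blocks GPX4, the enzyme that detoxifies lipid peroxides, and it is used to bring about ferroptosis. All 4 cultures were grown in DMEM with serum and antibiotics. With 1 library in each of the 4 groups, no value could be repeated, and no library analysed here came from cells given only ultrasound, only RSL3 or only its carrier.

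Keratins form the intermediate filaments of epithelial cells. A type I keratin and a type II keratin pair to make the filament, so the cell needs both types, and the pair in use differs between epithelia. Hepatocytes contain mainly KRT8 and KRT18, bile duct cells add KRT7 and KRT19, and other members serve the epidermis or the hair. Claudins span the membrane at the tight junction, where they join the claudins of the neighbouring cell. Some seal the space between cells, and others form channels through it. CLDN1 is the most familiar claudin of hepatocytes.

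Levels are given as FPKM, the fragments of a gene scaled to its transcript length and to the depth of its library. The depth inferred from low values was 22900000 to 26400000 fragments per library, at which a 1 kb transcript at 1 FPKM rests on 23 to 26 fragments. Between 11156 and 11715 coding genes reached 1 FPKM. The label HepG2 was at odds with the liver markers. Of 10 hepatocyte markers, 0 reached 1 FPKM in either HepG2-labelled library, their summed level was 0.435 to 0.528 FPKM, 7 were listed at 0 untreated and 5 treated, and ALB, TTR, FGB and FOXA2 were listed at 0 in both. In Huh7 all 10 reached 1 FPKM, with a summed level of 1561.5 FPKM untreated and 1206.2 treated. The libraries are therefore called HepG2-labelled below, and every difference between the lines is one between libraries so labelled. Endothelial markers summed to 0.112 to 1.15 FPKM over the 4 libraries, with CDH5 and KDR at or near 0. TIE1 was listed at 0 in the untreated and at 1.06 FPKM in the treated HepG2-labelled library. Blood markers summed to 0.0472 and 0.236 FPKM in the HepG2-labelled libraries, and to 19.3 and 4.07 FPKM in Huh7 untreated and treated, with PTPRC and CD3E listed at 0 in all 4. The Huh7 sums were carried by CD14, at 15.1 FPKM untreated and 2.21 treated, and LYZ, at 4.11 and 1.77. Fibroblast markers summed to 8.26 and 5.09 FPKM in the HepG2-labelled libraries and to 38.3 and 11.5 FPKM in Huh7. Of the 7 fibroblast markers, 2, 2, 2 and 3 reached 1 FPKM in the 4 libraries in that order, and COL1A2 was listed at 0 in both HepG2-labelled libraries. The part of these other cell markers in the results below was not tested.

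Most members were silent or near silent. Of the 79, 22 reached 1 FPKM in at least 1 library, 24 were above 0 but below 1 FPKM throughout, and 33 were listed at 0 in all 4. Of the keratins, 10 reached 1 FPKM in the untreated HepG2-labelled library, 11 in the treated one, and 5 in each Huh7 library. The claudins ran the other way, with 6 and 7 at 1 FPKM in the HepG2-labelled libraries and 9 and 8 in untreated and treated Huh7. The 24 weakly listed members were led by CLDN11, at 0.285, 0.0433, 0.75 and 0.44 FPKM in untreated and treated HepG2-labelled and untreated and treated Huh7, and by CLDN9, at 0.0738, 0.409, 0.0718 and 0.22 FPKM. The other 22 of these stayed at or below 0.152 FPKM. Among the keratins of skin, KRT5, KRT14, KRT1, KRT6A, KRT6B and KRT6C were listed at 0 in every library, as was CLDN14. Other skin keratins, KRT10, KRT15, KRT16 and KRT17, reached 1 FPKM in at least 1 library, and KRT10 stood between 8.18 and 21.2 FPKM in all 4. CLDN2, a cation pore claudin, did not exceed 0.0988 FPKM. In bulk RNA, fewer cells of a type and less RNA per cell cannot be told apart, and this holds for every level below.

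**Figure D1:**
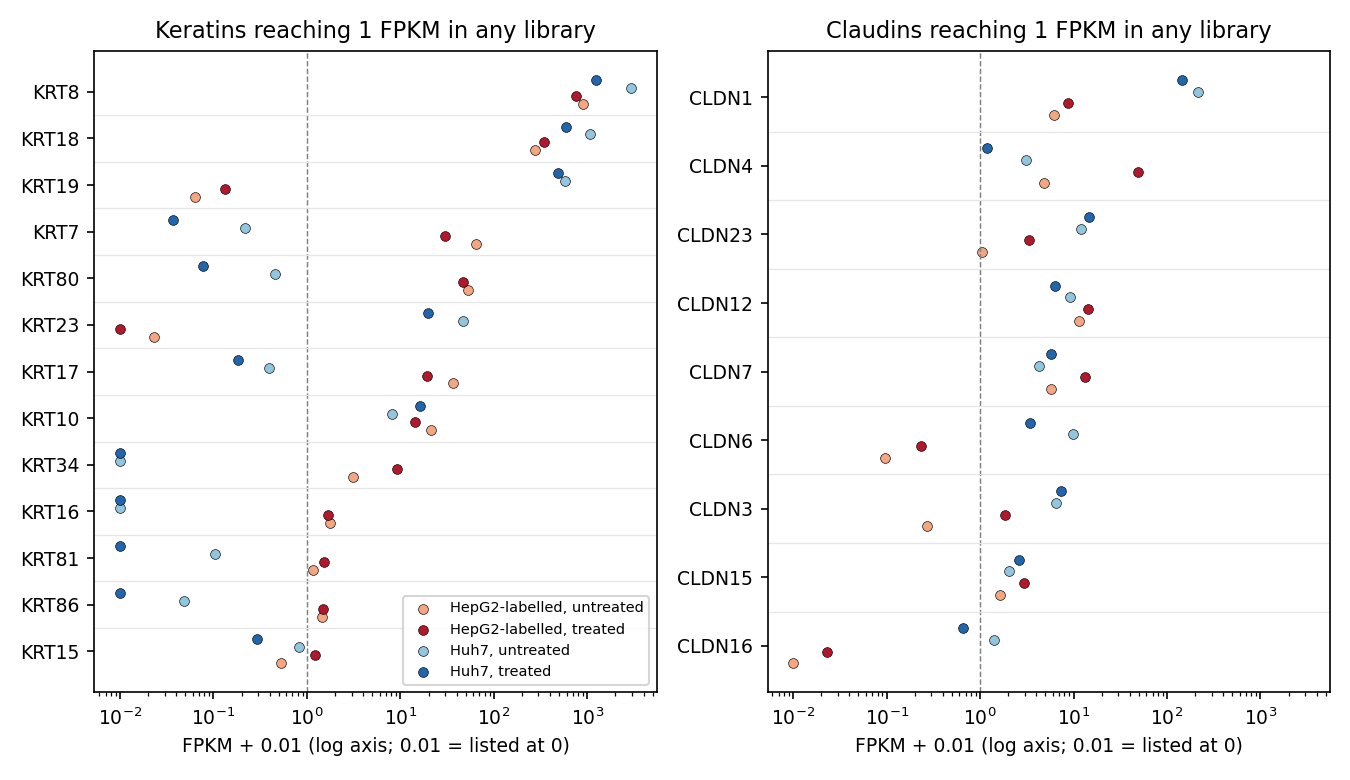
FPKM of the 22 keratins and claudins that reached 1 FPKM in any library, 1 point per library, on a log axis after adding 0.01, so that points at 0.01 are listed at 0. KRT8 and KRT18 lie far to the right in all 4 libraries, KRT19 and KRT23 only in Huh7, KRT7, KRT80 and KRT17 only in the HepG2-labelled libraries, and the treated HepG2-labelled library is the highest for CLDN4, at 49.4 FPKM.

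The question of the design is what the treatment does to each line. For each member the ratio of treated to untreated was taken as log2((treated FPKM + 1)/(untreated FPKM + 1)), which understates the change of low genes, and a member was counted where this ratio reached 2-fold. Only members with 1 FPKM or more in at least 1 of the compared libraries were counted. No test can be made of a single treated library against a single untreated one. In the HepG2-labelled pair 18 members passed this filter. The treated library was at least 2-fold higher for 5 of them, CLDN4, KRT34, CLDN3, CLDN23 and CLDN7, against 6.7% of all 11843 coding genes that passed. It was at least 2-fold lower for 1, KRT7, against 2.43% of all. The median log2 ratio was 0.32 over the 18 members and 0.09 over all coding genes.

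The 2-fold higher members were mostly claudins. All 7 claudins that passed in the HepG2-labelled pair had a log2 ratio above 0, 4 of them past 2-fold, and their median was 1.09, where 56.9% of all coding genes that passed were above 0. CLDN3 passed only through the treated library and so had to be higher there. Over all 24 claudins with no filter, 13 ratios were above 0, 2 below (CLDN2 and CLDN11) and 9 at 0. The 11 keratins that passed had 5 ratios above 0 and 6 below, with a median of -0.03 and 1 past 2-fold in each direction. KRT15, among those above, passed only through the treated library and so had to be higher there. In Huh7 14 members passed. The treated library was 2-fold higher for 0 of them, against 3.88% of all 11945 coding genes. It was 2-fold lower for 3, CLDN6, KRT8 and KRT23, against 2.19% of all. The 9 claudins had a median log2 ratio of -0.48 with 4 above 0 and 5 below. CLDN16, among those below, passed only through the untreated library and so had to be lower in the treated one. The 5 keratins had a median of -0.87 with 4 below 0. The median of all coding genes was 0.10.

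**Figure D2:**
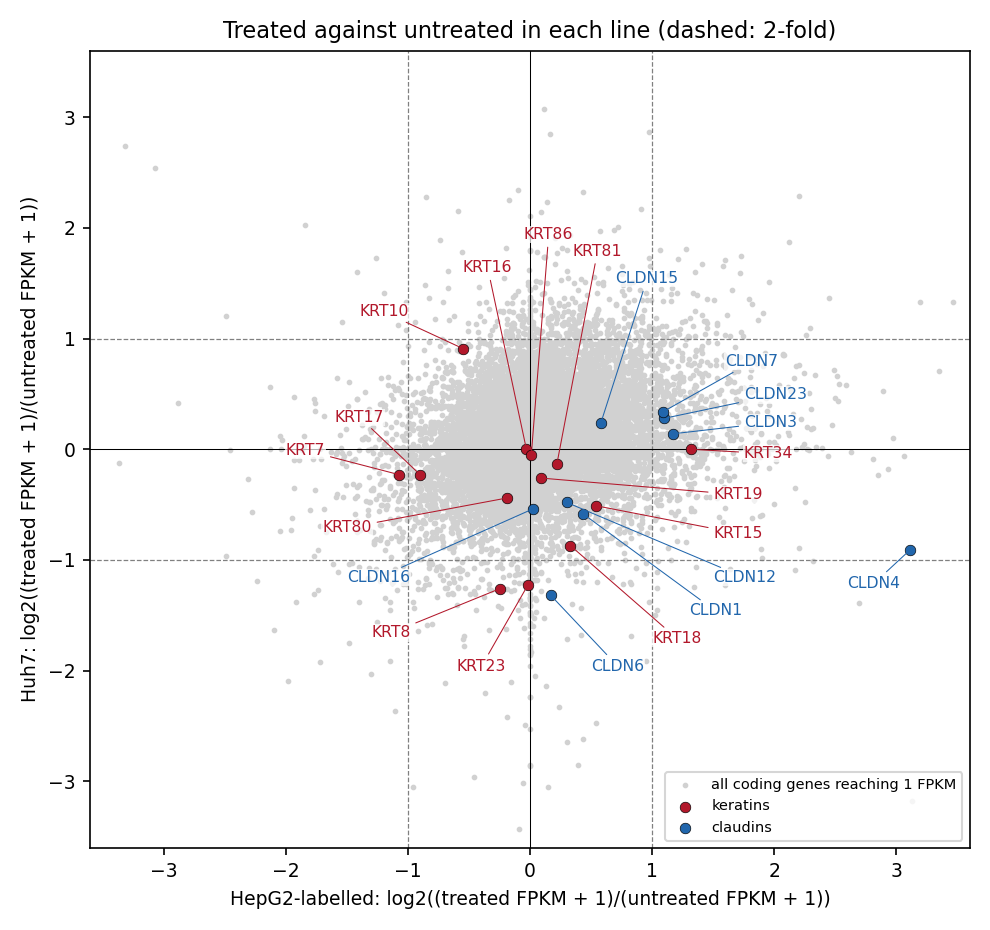
Log2 ratio of treated to untreated FPKM (after adding 1) in the HepG2-labelled pair (x axis) and the Huh7 pair (y axis) for the 13030 coding genes that reached 1 FPKM in any library (grey, 11 outside the plotted range), with the 22 keratins (red) and claudins (blue) named and dashed lines at 2-fold. CLDN4 stands alone at the right edge at 3.11 and -0.91, and KRT8, KRT23 and CLDN6 lie below the lower dashed line.

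The only test across libraries that the design allows was a limma fit of cell line and treatment to the log2(FPKM + 1) values. A single residual degree of freedom remains, and the measure of error is how far the responses of the lines disagree, not how repeat cultures vary. Limma moderates it for each gene with the disagreement over all coding genes fitted, so no SE or p rests on that gene alone. For treatment, limma called 0 of the 22 members and 0 of all 13030 coding genes at an adjusted p of 0.05, a background of 0%. At an unadjusted p of 0.05, 2 members passed, KRT8 at 0.016 and CLDN7 at 0.041, as did 1534 of all coding genes. The smallest adjusted p in the limma treatment test was 0.33 among the members and 0.082 among all genes. The treatment ratios below are therefore values of 1 library against another.

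Members differed between the lines in larger numbers. Untreated Huh7 was at least 2-fold above the untreated HepG2-labelled library for 9 of 21 members, against 17.5% of all 12446 coding genes, and at least 2-fold below it for 7, against 17.2%. Between the treated libraries, Huh7 was higher for 6 of 21, against 15.8% of all 12823 coding genes, and lower for 10, against 16.6%. The limma test of the cell line called 17 of the 22 members at an adjusted p of 0.05, 9 higher in Huh7 against a background of 18.6% and 8 lower against 19.1%. Both Huh7 libraries lay above both HepG2-labelled libraries for 9 members, against 31.9% of all coding genes, and below them for 10, against 35.3%. The libraries overlapped for 3 members, KRT10, KRT15 and CLDN15. The 5 members that limma did not call were KRT10, KRT15, CLDN7, CLDN12 and CLDN15, whose adjusted p for the line ran from 0.088 for CLDN7 to 0.92 for CLDN15.

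KRT8, the type II keratin of simple epithelia, was the most abundant member in all 4 libraries. Its gene (ENSG00000170421) lies on chromosome 12 at 52897187 to 52952904, in GRCh38 coordinates by the match of identifiers and positions to GENCODE 29. The KRT8 level was 890 FPKM in the untreated and 749 FPKM in the treated HepG2-labelled library, with 2936.3 FPKM for Huh7 before treatment and 1227.2 FPKM after it. Both Huh7 libraries were higher than both HepG2-labelled ones, and treated Huh7 had less KRT8 than untreated Huh7. The log2 ratio of treated to untreated was -0.25 in the HepG2-labelled pair and -1.26 in Huh7. The limma difference of Huh7 minus HepG2-labelled was 1.22 with SE 0.24 on the log2(FPKM + 1) scale, at an adjusted p of 0.0068, which became 0.0874 without the filter on low values. KRT8 ranked 5th among coding genes in untreated Huh7, 22nd in treated Huh7, and 39th and 34th in the untreated and treated HepG2-labelled libraries.

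KRT18, the type I partner of KRT8 (ENSG00000111057, chromosome 12, 52948871 to 52952906), had 273 and 344 FPKM in the untreated and treated HepG2-labelled libraries and 1070.7 and 584 FPKM in those of Huh7. Here too both Huh7 libraries were the higher ones, and the treated library was lower than the untreated one in Huh7 only. The log2 ratios were 0.33 in the HepG2-labelled pair and -0.87 in Huh7, and the limma line difference was 1.37 with an adjusted p of 0.0073, or 0.0669 without the filter on low values. KRT8 and KRT18 lie beside each other on opposite strands, and 16.3% of the exonic bases of KRT18 and 7.6% of those of KRT8 are annotated to both. The labels do not say whether strand was kept, so fragments from the shared bases cannot be assigned. A long noncoding transcript filed under KRT8 but lying over the KRT18 locus, KRT8-OT1 (chromosome 12, 52949216 to 52952904), was listed at 75.1, 97.1, 276 and 154 FPKM in the same library order. Its log2 ratios of 0.37 and -0.83 stood beside the 0.33 and -0.87 of KRT18.

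KRT19, a type I keratin of bile duct and other simple epithelia (ENSG00000171345, chromosome 17, 41523617 to 41528308), separated the lines most. KRT19 stood at 0.0534 and 0.124 FPKM in the untreated and treated HepG2-labelled libraries and at 578 and 482 FPKM in untreated and treated Huh7. It was thus among the leading genes of Huh7, ranking 76th and 85th, and near 0 in the other line. The limma line difference was 8.92 with SE 0.24 and an adjusted p of 2.4e-06, the largest among the members, and the log2 ratio of treated to untreated in Huh7 was -0.26. KRT23, another type I keratin (ENSG00000108244), followed the same division at a lower level, with 0.0133 and 0 FPKM in the HepG2-labelled libraries and 47.0 and 19.5 FPKM in untreated and treated Huh7. Treated Huh7 was lower by a log2 ratio of -1.23, and the limma line difference was 4.96 with an adjusted p of 5.4e-05.

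The HepG2-labelled libraries held a different set. KRT7, a type II keratin of ducts and glands (ENSG00000135480, chromosome 12, 52232520 to 52252186), had 63.8 and 29.9 FPKM in the untreated and treated HepG2-labelled libraries and 0.207 and 0.0269 FPKM in Huh7. The log2 ratio of -1.07 in the HepG2-labelled pair made it the only member at least 2-fold lower there, and the limma line difference was -5.33 with an adjusted p of 2.3e-05. The overlapping transcript KRT7-OT1 was listed at 2.31 and 0.852 FPKM in the untreated and treated HepG2-labelled libraries and at 0 in Huh7. KRT80, a type II keratin found in many epithelia (ENSG00000167767), lies 40505 bases from KRT7 and stood at 52.9 and 46.4 FPKM in the HepG2-labelled libraries and at 0.444 and 0.0673 FPKM in Huh7. KRT80 differed little between the untreated and treated HepG2-labelled libraries, with a log2 ratio of -0.19, and its limma line difference was -5.35 with an adjusted p of 1.4e-05.

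KRT17, a type I keratin of hair follicles and wounded or proliferating epidermis (ENSG00000128422, chromosome 17, 41619441 to 41624842), had 36.5 and 19.1 FPKM in the untreated and treated HepG2-labelled libraries and 0.379 and 0.173 FPKM in Huh7. The ratio in the HepG2-labelled pair was -0.90, just short of 2-fold, and the limma line difference was -4.43 with an adjusted p of 4.3e-05. KRT16, its neighbour 3541 bases away and a close paralog, stood at 1.74 and 1.69 FPKM in the HepG2-labelled libraries and was listed at 0 in Huh7. Fragments can be shared between close paralogs, which was not measured here, so the level of KRT16 is uncertain. The same can hold for the hair keratins KRT81 and KRT86, whose listed loci overlap, and it was not measured for them either. KRT81 stood at 1.15 and 1.51 FPKM in the HepG2-labelled libraries and at 0.0929 and 0 FPKM in Huh7. KRT86 had 1.45 and 1.47 FPKM in the former and 0.0386 and 0 FPKM in the latter. Limma called KRT16, KRT81 and KRT86 lower in Huh7, with adjusted p of 0.0084, 0.023 and 0.014, and their ratios in the HepG2-labelled pair lay between -0.03 and 0.22.

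KRT34, a type I hair keratin (ENSG00000131737, chromosome 17, 41377650 to 41382403), was the only keratin at least 2-fold higher in the treated HepG2-labelled library. Its level was 3.12 FPKM before and 9.28 FPKM after treatment, and it was listed at 0 in both Huh7 libraries. These levels correspond to about 140 fragments untreated (exact 95% Poisson interval 118 to 165) and 376 treated (339 to 416), so that the difference between the 2 libraries exceeds counting error, which is the only error these intervals cover. The log2 ratio was 1.32, and the limma line difference was -2.70 with an adjusted p of 0.0014. KRT10, the suprabasal type I keratin of epidermis, was one of the few members with no order of the lines, at 21.2 and 14.2 FPKM in untreated and treated HepG2-labelled cells and 8.18 and 16.2 FPKM in untreated and treated Huh7. Its ratios were -0.55 and 0.91, and limma gave an adjusted p of 0.26 for the line. KRT15, a type I keratin of basal epithelial cells, stood at 0.515, 1.2, 0.816 and 0.279 FPKM in the same order, and the libraries of the lines overlapped.

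The start sites of KRT34 and KRT10 are shown because these keratins had ratios of opposite sign in the HepG2-labelled pair and both carry a TATA box close to the start. RefSeq promoter sequences (GRCh38.p14) were at hand for 11 of the 22 members at 1 FPKM, KRT8, KRT10 and KRT34 among the keratins. The 250 bases before each start were searched on both strands for 5 short motifs. The letters of the TATA box were TATAAA. Those of the AP-1 site, which binds JUN and FOS proteins, were TGANTCA. The cyclic AMP element, or CRE, was searched as TGACGTCA, the E-box bound by SNAI and ZEB repressors as CAGGTG, and the GC box bound by SP proteins as GGGCGG. The TATA box was in 10.7% of all 35116 such windows and in 8.8% of the 20995 of coding genes, and a match is a description of letters, not of use. Each line gives 30 bases on the minus strand, 5′ to 3′, with the TATA box in capitals, 31 bases upstream of the start for KRT34 at chr17:41382320-41382349 and 29 bases for KRT10 at chr17:40822626-40822655. The KRT8 window held none of the 5 motifs. Of the 250 bases before the start, GENCODE 29 annotates 97 as exonic for KRT34 and 0 for KRT10.
KRT34: cacaattaatggTATAAAaggactgcagag
KRT10: accctctcagtaTATAAAggcttgtcactg

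Summed over each family, the type I keratins came to 336 FPKM in the untreated and 390 FPKM in the treated HepG2-labelled library, and to 1705.3 and 1102 FPKM in untreated and treated Huh7. The type II keratins came to 1009.8 and 829 FPKM in the HepG2-labelled libraries and to 2937.1 and 1227.3 FPKM in Huh7. The ratio of type II to type I was 3 untreated and 2.13 treated in the HepG2-labelled pair, and 1.72 and 1.11 in Huh7, lower in the treated library of each line. The ratio of KRT8 to KRT18 was 3.26 and 2.18 in the HepG2-labelled pair and 2.74 and 2.1 in Huh7. KRT8 made up 88.2% and 90.4% of the type II sum in the HepG2-labelled libraries, and nearly the whole of it in Huh7, where KRT7 and KRT80 each stayed below 1 FPKM. KRT18 made up 81.2% and 88.3% of the type I sum in the HepG2-labelled libraries, and 62.8% and 53.0% in untreated and treated Huh7. KRT19 supplied 33.9% and 43.7% of the type I sum in Huh7. Keratins as a whole were 0.38% and 0.36% of the summed coding FPKM in the HepG2-labelled libraries, and 1.25% and 0.62% in untreated and treated Huh7.

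**Figure D3:**
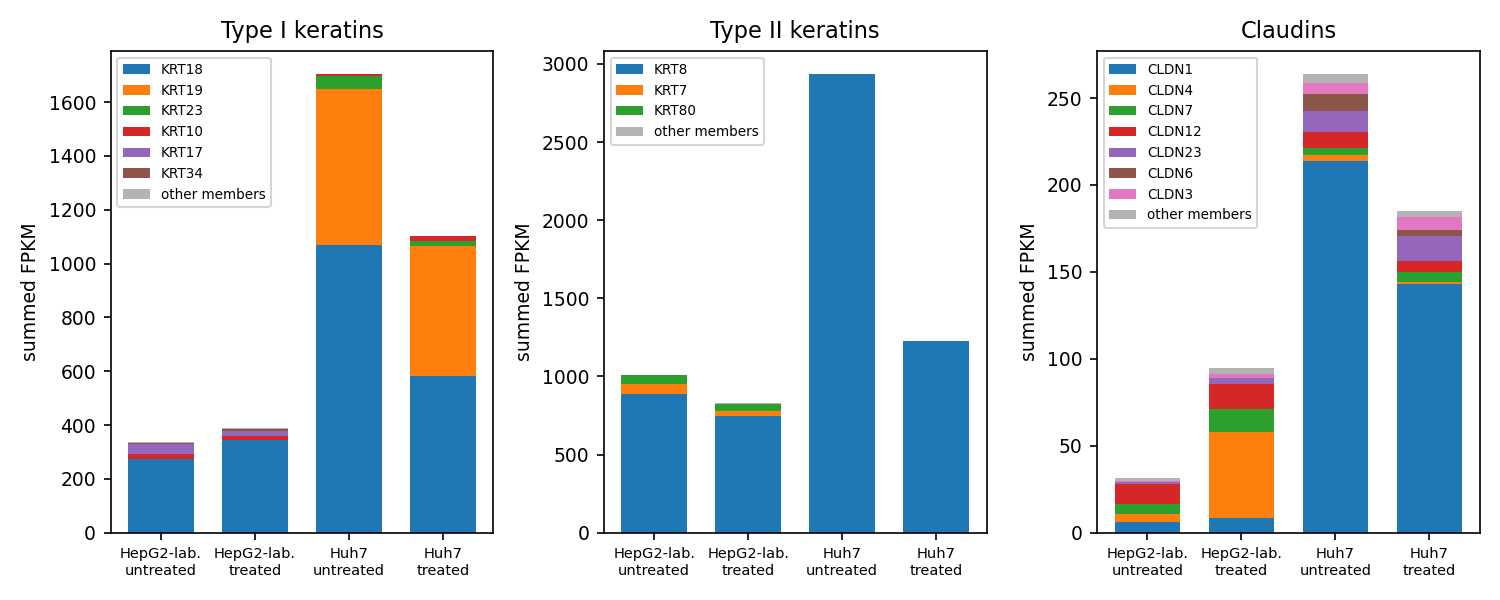
Summed FPKM of the type I keratins, type II keratins and claudins in each library, stacked by member, with the members not drawn singly in grey. KRT18 and KRT19 share the type I sum in Huh7, KRT8 makes up almost all of the type II sum, and the claudin sum is led by CLDN1 in Huh7 and by CLDN4 in the treated HepG2-labelled library.

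Among the claudins, CLDN1, a sealing claudin that is prominent in hepatocytes (ENSG00000163347, chromosome 3, 190305707 to 190322446), was the most abundant in Huh7. CLDN1 stood at 6.14 and 8.63 FPKM in the untreated and treated HepG2-labelled libraries and at 214 and 143 FPKM in untreated and treated Huh7. It made up 81.3% and 77.0% of the summed claudin FPKM in the Huh7 libraries. The log2 ratios were 0.43 and -0.58, short of 2-fold in both lines and opposite in sign, and the limma line difference was 4.41 with an adjusted p of 3.9e-05. CLDN16, a channel claudin best known from the kidney, has a listed locus 94 bases from that of CLDN1, though the RefSeq starts used below for CLDN16 lie elsewhere. It stood at 0 and 0.0132 FPKM in the HepG2-labelled libraries and at 1.39 and 0.65 FPKM in untreated and treated Huh7. Both neighbours were thus higher in Huh7, CLDN16 with a limma adjusted p of 0.048, or 0.0519 with the libraries rescaled to 1 sum.

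CLDN4, a sealing claudin of many simple epithelia (ENSG00000189143, chromosome 7, 73799542 to 73832693), had the largest treatment ratio of any member. Its level was 4.85 FPKM in the untreated and 49.4 FPKM in the treated HepG2-labelled library, against 3.10 FPKM for Huh7 before treatment and 1.17 FPKM after it. The untreated lines were close in level, and the treated ones lay on opposite sides of them. The log2 ratio was 3.11 in the HepG2-labelled pair, an 8.62-fold difference on the log2(FPKM + 1) scale, and -0.91 in Huh7. CLDN4 led the claudin sum of the treated HepG2-labelled library with 52.2%, where CLDN12 had led the untreated one with 35.9%. The limma line difference for CLDN4 was -2.53 with SE 0.78 and an adjusted p of 0.037. It averages a log2 ratio of Huh7 to HepG2-labelled of -0.51 untreated and -4.54 treated, so it describes neither pair. That limma call was lost in 3 alternatives, with adjusted p of 0.0507 without the mean-variance trend, 0.0561 with a pseudocount of 0.1 and 0.161 without the filter on low values.

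The listed locus of CLDN3, another sealing claudin (ENSG00000165215, chromosome 7, 73768997 to 73770270), lies 29271 bases from that of CLDN4. The RefSeq start used below for CLDN4 lies farther off. CLDN3 was also higher in the treated HepG2-labelled library. It stood at 0.259 and 1.83 FPKM there and at 6.49 and 7.25 FPKM in untreated and treated Huh7. About 8 fragments (3.45 to 15.8) lay behind the untreated and 54 (40.6 to 70.5) behind the treated HepG2-labelled value, so the levels are low but their Poisson intervals do not overlap. The log2 ratios were 1.17 in the HepG2-labelled pair and 0.14 in Huh7, and limma gave a line difference of 2.06 with an adjusted p of 0.0028. CLDN7, a sealing claudin that often accompanies these (ENSG00000181885, chromosome 17, 7259903 to 7263983), had 5.75 and 13.4 FPKM in the HepG2-labelled libraries and at 4.31 and 5.75 FPKM in Huh7. Its ratios of 1.09 and 0.34 were both above 0, and its limma adjusted p for treatment was 0.4. Of the exonic bases of CLDN7, 10.8% are shared with an overlapping coding locus on the same strand, AC003688.1.

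CLDN23, a less studied claudin of gut epithelium (ENSG00000253958), stood at 1.04 and 3.36 FPKM in the untreated and treated HepG2-labelled libraries and at 11.9 and 14.7 FPKM in Huh7. About 58 (44 to 75) and 169 (144 to 196) fragments lay behind the HepG2-labelled values. The log2 ratio was 1.10 there and 0.28 in Huh7, and Huh7 was higher by 2.26 in limma with an adjusted p of 0.0011. CLDN6, a sealing claudin of embryonic epithelia that several tumours express (ENSG00000184697, chromosome 16, 3014712 to 3020071), had 0.0856 and 0.224 FPKM in the HepG2-labelled libraries and at 9.92 and 3.38 FPKM in untreated and treated Huh7. Treated Huh7 was lower by a log2 ratio of -1.32, and the limma line difference was 2.59 with an adjusted p of 0.0021.

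Limma called neither CLDN12 nor CLDN15 for the line. CLDN12, an unusual claudin without the usual scaffold-binding end (ENSG00000157224), stood at 11.4 and 14.2 FPKM in the HepG2-labelled libraries and at 9.15 and 6.28 FPKM in Huh7, with ratios of 0.30 and -0.48 and a limma adjusted p for the line of 0.1. Both HepG2-labelled libraries had more CLDN12 than both of Huh7, by 2-fold or more between the treated ones. CLDN15, a cation channel claudin of the intestine (ENSG00000106404), stood at 1.63 and 2.94 FPKM in the HepG2-labelled libraries and at 2.05 and 2.59 FPKM in Huh7, with ratios of 0.58 and 0.24 and overlapping lines. The summed claudin level was 31.6 FPKM in the untreated and 94.6 FPKM in the treated HepG2-labelled library, and 264 and 185 FPKM in untreated and treated Huh7. The claudin sum was therefore higher after treatment in one line and lower in the other, as 2 pairs of single libraries.

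The sequences before the starts of CLDN4, CLDN3 and CLDN7 are given because these claudins were higher together in the treated HepG2-labelled library, and that of CLDN6 because it was the only claudin at least 2-fold lower in treated Huh7. They come from the same RefSeq windows (GRCh38.p14), 5′ to 3′ on the strand of the gene. In capitals are the AP-1 letters of CLDN4 (plus strand, chr7:73830823-73830852, 161 bases before the start), the CRE letters of CLDN7 (minus strand, chr17:7262576-7262605, 116 bases before) and of CLDN6 (minus strand, chr16:3018212-3018241, 47 bases before), and a pair of GC boxes of CLDN3 (minus strand, the last 100 bases before the start, chr7:73770271-73770370).
CLDN4: gagactggatagTGACTCAgggacccgggg
CLDN7: tgtcccttcggTGACGTCAggtcatcctcg
CLDN6: cggtggtccagTGACGTCAccgcttcttta
CLDN3: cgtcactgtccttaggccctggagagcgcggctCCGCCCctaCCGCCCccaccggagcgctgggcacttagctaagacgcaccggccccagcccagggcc
Over all 35116 windows of 250 bases, the AP-1 letters were in 6.6%, the CRE letters in 1.6%, the E-box letters in 17.5% and the GC box in 42.6%. Over the 20995 windows of coding genes alone the shares were 5.4%, 2.0%, 17.0% and 54.3%. Of the 5 motifs, CLDN4, CLDN3 and CLDN7 shared only the GC box, and no match of 1 motif overlapped that of another. The GC box letters were also in the windows of CLDN6, CLDN1 and CLDN15 and of a start of CLDN16. CLDN23, also at least 2-fold higher in the treated HepG2-labelled library, had no promoter sequence at hand. The windows of CLDN4, CLDN7 and CLDN6 lie wholly in exons that GENCODE 29 annotates for longer or overlapping transcripts, and that of CLDN3 in none. A further start listed for CLDN7 held none of the motifs. CLDN4 held a further AP-1 match 242 bases before its start, and CLDN15 and CLDN16, which were not past 2-fold in either line, held 1 each, at 219 and 246 bases. The other start listed for CLDN16 held none of the motifs. CLDN7 held 4 E-box matches, between 9 and 174 bases before the start. CLDN12 held none of the 5 motifs.

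The genes that work with claudins at the tight junction were examined next, in a list of 25 of which 24 were in the table. Of the 16 that passed the filter in the HepG2-labelled pair, 2 were at least 2-fold higher after treatment and 0 lower, against 6.7% and 2.43% of all coding genes, with a median log2 ratio of 0.31 against 0.09 for all coding genes. They were ESAM, an adhesion molecule best known from endothelial junctions, at 34.9 and 79.3 FPKM, and TJP3, a scaffold that binds claudin tails, at 0.197 and 1.55 FPKM. LSR, a component of junctions where 3 cells meet, stood at 0.54 and 1.91 FPKM in the HepG2-labelled libraries and at 21.7 and 39.8 FPKM in Huh7. In the HepG2-labelled pair TJP3, LSR and MARVELD2, the last at 0.902 and 1.64 FPKM, passed the filter only through the treated library. Their ratios therefore had to be above 0, and the median of 0.31 includes them. In Huh7, 0 of 20 passed 2-fold in either direction, with a median of -0.09 against 0.10 for all. Over this and the other related lists together, 1 gene passed 2-fold in Huh7, but 6 did with a pseudocount of 0.1, 2 higher and 4 lower. CGNL1, a cytoskeletal adaptor, stood at 3.91 and 1.70 FPKM. No gene of this list passed the limma test of treatment.

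Between the lines, limma called 11 of 21 tested tight junction genes higher in Huh7 and 2 lower, against 18.6% and 19.1% of all coding genes. The 11 were OCLN, MARVELD2 and MARVELD3, which span the membrane beside claudins, and LSR, F11R, CRB3, CGN, CGNL1, MPDZ, PATJ and TJP3, with differences from 0.84 for PATJ to 3.85 for OCLN. OCLN, or occludin, stood at 0.0775 and 0.144 FPKM in the HepG2-labelled libraries and at 15.9 and 14.1 FPKM in Huh7. The 2 lower in Huh7 were ESAM at -5.14 and the polarity kinase PRKCI at -0.86. The claudin scaffold TJP1 stood at similar levels in all 4 libraries, between 8.71 and 12.4 FPKM.

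Keratin filaments end at the desmosome. Of its 16 listed genes, limma called 5 of 9 tested lower in Huh7, against 19.1% of all coding genes, namely DSG2, DSP, EVPL, JUP and PLEC, from -2.23 for DSG2 to -0.95 for JUP, and 2 higher, PKP2 at 1.62 and PPL at 1.61, against 18.6%. DSP, or desmoplakin, which anchors the filaments, stood at 25.8 and 25.9 FPKM in the HepG2-labelled libraries and at 10.2 and 9.35 FPKM in Huh7. After treatment, 0 of 9 were at least 2-fold higher in the HepG2-labelled pair, against 6.7% of all coding genes. At least 2-fold lower was 1 of 9, against 2.43% of all. This was PKP3, a plaque protein, at 41.0 FPKM untreated and 9.99 FPKM treated, while in Huh7 it stood at 40.1 and 37.4 FPKM. In Huh7, 0 of 8 passed 2-fold. The medians were 0.06 in the HepG2-labelled pair and -0.11 in Huh7.

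**Figure D4:**
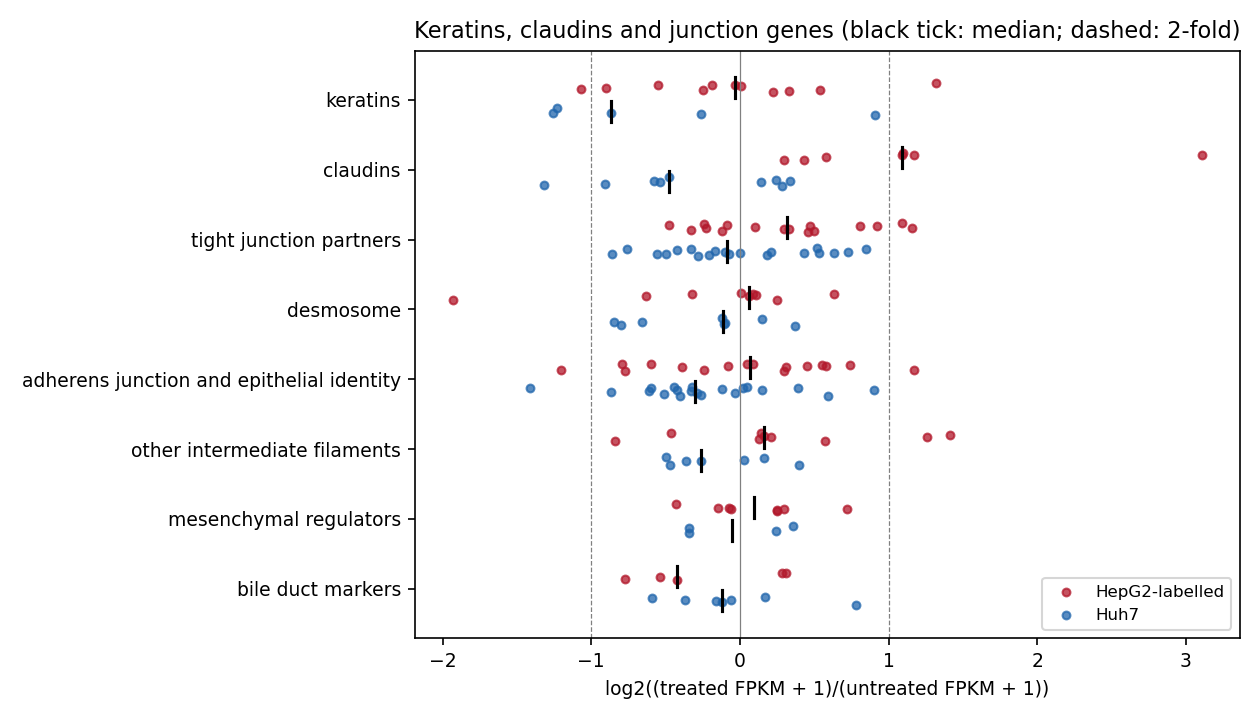
Log2 ratio of treated to untreated FPKM (after adding 1) in the HepG2-labelled pair (red) and the Huh7 pair (blue) for keratins, claudins and the lists of related genes, 1 point per gene at 1 FPKM or more in the pair, with black ticks at the medians and dashed lines at 2-fold. The claudin median of the HepG2-labelled pair, 1.09, lies to the right of every other median drawn, and the keratin median of Huh7, -0.87, to the left.

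Genes of the adherens junction and of epithelial identity were counted in the same way. In the HepG2-labelled pair, 1 of 16 was at least 2-fold higher, the membrane protease PRSS8 at 0.294 and 1.91 FPKM, and 1 lower, its relative ST14 at 10.2 and 3.86 FPKM, with a median of 0.07. These shares lie near the 6.7% and 2.43% of all coding genes. PRSS8, EPCAM and GRHL1 passed the filter only through the treated library, so their ratios had to be above 0, and the median of 0.07 includes them. In Huh7, 0 of 20 were higher and 1 was lower, against 3.88% and 2.19% of all coding genes. The median was -0.30. In that pair OVOL2 and SPINT2 passed only through the untreated library and TP63 only through the treated one, fixing the sign of each ratio. The lower gene was the epithelial transcription factor KLF5, at 32.7 and 11.7 FPKM. KLF4, a related factor, stood at 17.2 and 21.3 FPKM in the HepG2-labelled libraries and at 5.89 and 11.8 FPKM in Huh7. Limma called 8 of 22 higher in Huh7, against 18.6% of all coding genes. These were CDH1, EPCAM, SPINT1, CDX2, ESRP1, AFDN, NECTIN2 and CTNND1. It called 4 of 22 lower, SPINT2, KLF4 and CTNNA1 among them, a share near the 19.1% of all coding genes. CDH1, or E-cadherin, stood at 0.266 and 0.00898 FPKM in the HepG2-labelled libraries and at 26.1 and 16.8 FPKM in Huh7. EPCAM, an adhesion molecule of epithelial and bile duct cells, stood at 0.908 and 1.37 FPKM against 46.5 and 42.6 FPKM.

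The bile duct list, which holds the usual companions of KRT7 and KRT19, was mostly higher in Huh7, as KRT19 was and KRT7 was not. Limma called 6 of 8 higher in Huh7, namely EPCAM, SPP1, SOX9, CD24, PROM1 and CFTR, against 18.6% of all coding genes. It called 1 lower, against 19.1%. SOX9, a transcription factor of duct cells, stood at 1.92 and 2.55 FPKM in the HepG2-labelled libraries and at 38.4 and 25.1 FPKM in Huh7. For treatment, 0 of 5 passed 2-fold in the HepG2-labelled pair and 0 of 7 in Huh7, with medians of -0.42 and -0.12.

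Other intermediate filament genes were compared because they share the cytoskeleton with keratins. VIM, or vimentin, the filament of mesenchymal and many cultured cells, stood at 497 and 555 FPKM in the HepG2-labelled libraries and at 603 and 793 FPKM in Huh7, in no case 2-fold different. In the HepG2-labelled pair 2 of 9 were at least 2-fold higher, NES at 0.839 and 3.41 FPKM and DES at 0.103 and 1.93 FPKM, and 0 lower, with a median of 0.16. Both passed the filter only through the treated library, so they had to be higher there, and 6.7% of all coding genes were. In Huh7, 0 of 7 passed 2-fold and the median was -0.26. The nuclear lamin LMNB1 stood at 44.8 and 24.7 FPKM in the HepG2-labelled libraries and at 22.1 and 15.4 FPKM in Huh7. Limma called NES and LMNB2 higher in Huh7, at 4.21 and 0.75, and INA, LMNA and LMNB1 lower, at -3.74, -0.88 and -0.82. That was 2 of 9 tested higher and 3 lower, against 18.6% and 19.1% of all coding genes.

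The regulators and products of the mesenchymal state, which repress or replace epithelial genes, showed no 2-fold treatment ratio, 0 of 8 in the HepG2-labelled pair and 0 of 4 in Huh7, with medians of 0.09 and -0.05. The largest ratio was that of SNAI1, a repressor of CDH1, at 3.05 and 5.68 FPKM in the HepG2-labelled libraries. Between the lines limma called TWIST2, TWIST1, ZEB2, ZEB1 and SNAI2 lower in Huh7, from -3.71 for TWIST2 to -0.93 for SNAI2. It called FN1, or fibronectin, higher by 6.68. That was 5 of 8 tested lower and 1 higher, against 19.1% and 18.6% of all coding genes. TWIST1 and TWIST2 stood at 4.36 to 12.3 FPKM in the HepG2-labelled libraries and were listed at 0 in Huh7. CDH2, or N-cadherin, stood between 16.2 and 20.8 FPKM in all 4 libraries.

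The authors' own comparisons of treated with untreated cells also held members. The authors' deposited table for the HepG2-labelled pair counted 29 of 131 genes of the Gene Ontology term tight junction in a list of 3213, with p = 0.0163 and a corrected p of 0.24. For Huh7 the authors' deposited table counted 18 of 131 in a list of 2438, with p = 0.235 and a corrected p of 0.942. For the term keratin filament the authors' deposited table counted 5 of 139 in the HepG2-labelled pair and 7 of 139 in Huh7, with a corrected p of 1 in both. The HepG2-labelled list of the authors' deposited table held 9 of the 55 keratins and 8 of the 24 claudins, beside 3213 genes of a background of 22135. Of these members, KRT7, KRT17 and KRT34 and CLDN3, CLDN4 and CLDN23 had reached 1 FPKM in that pair. The Huh7 list of the authors' deposited table held 10 keratins and 6 claudins, beside 2438 genes of the same background. Of these members, KRT8 and KRT23 and CLDN4, CLDN6, CLDN12 and CLDN16 had reached 1 FPKM. Whether the families differ from the background in these lists was not tested. The sources used here do not give the rule behind these lists.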

How the data were processed

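The authors deposited 1 table of FPKM per coding gene and 1 of FPKM per long noncoding transcript, with a column for each of the 4 libraries, per the file headers. Libraries were made from total RNA with an Illumina TruSeq kit, per the labels' protocols. For the tools, the submitters' processing notes list HISAT2, Bowtie2 2.2.8, Cuffdiff 2.1.1, StringTie 1.3.1, SAMtools 0.1.18, Picard 1.96 and GATK, with no roles. The sources used here do not give the genome build. All 79 members have an identifier in GENCODE 29 and a listed position overlapping that gene. The authors also deposited enrichment tables with p-values for their own comparisons, per the file headers.

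FPKM are not counts, so ratios of log2(FPKM + 1) were computed, with a minimum of 1 FPKM in at least 1 library compared and a threshold of 2-fold. Depth was inferred from the steps of low FPKM values of single-transcript genes. Limma 3.58.1 (R 4.3.3) fitted cell line and treatment with a mean-variance trend over 13030 coding genes, with Benjamini-Hochberg adjustment. It was tested on simulated data. Cell line, from the labels, pairs the libraries. Alternatives were a pseudocount of 0.1, no minimum, a minimum of 5 FPKM, each library rescaled to 1 sum, size factors, and no trend. Every member at 1 FPKM is named, and of each related list the up to 4 largest ratios and the genes limma called, though some genes the rule names are not reported here. The members, lists and tests were chosen with earlier results of these data known.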

Additional observations from a re-analysis of the deposited data

Results flagged for a closer look

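CLDN4 moved in opposite directions in the lines. Its log2 ratio of treated to untreated was 3.11 in the HepG2-labelled pair and -0.91 in Huh7, a difference of -4.02 (Huh7 minus HepG2-labelled). Each value rests on 1 library against 1, and the difference itself was not tested.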

How the results depend on the processing

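The number of members at least 2-fold different ranged over the alternatives from 4 to 7 in the HepG2-labelled pair (6 as reported), from 3 to 4 in Huh7 (3), from 12 to 17 between the untreated lines (16) and from 12 to 17 between the treated lines (16). Limma called 13 to 17 members for the line (17) and 0 for treatment under every alternative. Line calls were lost for CLDN4 in 3 alternatives, for KRT8 and KRT18 without the filter on low values and for CLDN16 with libraries rescaled to 1 sum, and the cause was not tested. The related lists held 7 genes past 2-fold in the HepG2-labelled pair, and 3 with a minimum of 5 FPKM, with fewer genes considered. In Huh7 they held 1, and 6 with a pseudocount of 0.1. Of 222 single-gene ratios recomputed, 216 kept their sign and their side of 2-fold and 0 that had passed 2-fold changed sign. With a pseudocount of 0.1, 4 newly passed 2-fold, KRT15 in the HepG2-labelled pair at 1.08, CLDN4 in Huh7 at -1.33, KRT81 between the untreated lines at -2.69 and KRT15 between the treated lines at -1.78. The other 2, KRT86 and KRT16 in the HepG2-labelled pair, stayed near 0. The median of all coding genes between the treated lines was -0.02, and -0.15 with libraries rescaled to 1 sum. No paired analysis was possible because each group holds 1 library, apart from the limma fit with cell line as a term. With 1 library per group, error between cultures is unknown, and members under 1 FPKM rest on few fragments.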
